A study of Homo sapiens with 12 samples.

Results

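The p53 target genes SESN1, TP53INP1, GADD45A, CDKN1A, BAX, DDB2, XPC, MDM2, PPM1D and ZMAT3 were followed in Jurkat, a human T-cell leukaemia line that is known to lack functional p53 protein (RNA arrays do not test this). The 10 genes were taken by name, as established p53 targets, with earlier results of these data known. They were represented by 27 of the 41091 probe sets that list a single gene symbol, and by 10 of the 19775 genes so named. A filter on low values (mean over the 12 arrays at or above 4.02 on the log2 scale, the median of all probe sets) kept 19 of the 27. Each of the 10 genes kept at least 1: SESN1, GADD45A, CDKN1A, DDB2 and XPC have 1 probe set each, TP53INP1 kept 1 of 3, BAX 2 of 2, PPM1D 2 of 2, ZMAT3 4 of 5 and MDM2 5 of 10.

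All arrays came from Jurkat cells transduced either with a miR-21 overexpression construct or with the matching control vector. From each construct, RNA was profiled from the whole lysate (Total RNA), after immunopurification with an AGO2 antibody (AGO2 IP) and after immunopurification with control IgG (IgG IP). That made 6 groups of 2 replicates, and 12 Affymetrix arrays. The labels name no treatment, so the levels are taken as basal. They do not say whether replicates were separate cultures, and p-values therefore measure the spread between these arrays only.

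p53 is a transcription factor that binds a pair of adjacent half-sites in DNA and, when stabilised by DNA damage or other stress, raises genes for cell-cycle arrest, apoptosis, DNA repair and its own inhibition. MDM2 is the ubiquitin ligase that degrades p53 and is itself a p53 target, which closes a negative feedback loop. AGO2 is the Argonaute protein that holds a miRNA together with the mRNAs it pairs with, so that RNA recovered with AGO2 over the IgG background is the usual measure of miRNA-associated mRNA.

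The miRNA of the construct is shown first, with its seed (bases 2 to 8) in capitals, because it defines the comparison between constructs. RefSeq (GRCh38.p14) places it at chr17:59841273-59841294, plus strand.
hsa-miR-21-5p: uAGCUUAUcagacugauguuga

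The promoters of 3 of the genes hold a sequence close to the p53 consensus and are shown because p53 acts on its targets through such an element. The search took adjacent half-sites of the p53 consensus, 20 bases in all, with at most 3 mismatches. No mismatch was allowed at the central C and G of either half-site. The consensus is its own reverse complement, so both strands were covered. That limit was chosen after matches had been seen. Windows ran from 250 bases before to 50 after each RefSeq start; 15 windows were held for 8 of the 10 genes, and 4 windows of 3 genes had a match. Over all genes with windows, 373 of 27305 (1.37%) had one, and over all windows 392 of 35116 (1.12%). The best match is in capitals: in SESN1 (chr6:109008989-109009077, minus strand) it lies 49 to 30 bases before 1 of the starts, with 3 mismatches. In DDB2 (chr11:47214929-47214988, plus strand) it runs from 5 bases before to 14 after 1 of the starts, with 1 mismatch. In MDM2 (chr12:68808883-68808982, plus strand) it lies 94 to 75 bases before 1 of the starts, with 2 mismatches. The match is a description of these letters and no measure of binding.
SESN1: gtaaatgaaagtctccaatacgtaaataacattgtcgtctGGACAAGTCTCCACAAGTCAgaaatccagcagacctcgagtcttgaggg
DDB2: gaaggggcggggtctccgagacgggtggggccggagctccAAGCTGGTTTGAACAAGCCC
MDM2: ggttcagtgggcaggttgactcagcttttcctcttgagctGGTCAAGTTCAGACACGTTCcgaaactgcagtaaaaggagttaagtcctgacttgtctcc

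Several facts of the arrays touch every result. The array means were 4.39 to 4.41 in replicate 1 and 5.26 to 5.27 in replicate 2, so a log2 value is read only within a replicate number. Over the 23123 probe sets tested, AGO2 IP and IgG IP values correlated in replicate 1 at 0.920 with the control vector and 0.931 with miR-21. In replicate 2 these correlations were 0.996 and 0.988, above that between both AGO2 IP arrays (0.963) or both IgG IP arrays (0.961), so the IP arrays of replicate 2 were closer by construct than by antibody. The mean AGO2 IP minus IgG IP difference of replicate 1 was also set against each IP array of replicate 2 minus its Total RNA array, which both IPs of a construct share, over the same probe sets. It correlated at 0.501 with the array labelled IgG IP and 0.465 with that labelled AGO2 IP of miR-21 cells, and at 0.0484 and 0.0449 with those labelled IgG IP and AGO2 IP of the control vector. The p53 target PLK3, not one of the 10, read 4.47 and 4.57 in IgG IP and 6.21 and 6.11 in AGO2 IP of replicate 1 (control vector, then miR-21), but 4.73 and 6.70 in IgG IP and 4.79 and 6.15 in AGO2 IP of replicate 2. By that correlation, both miR-21 IP arrays of replicate 2 resembled the AGO2 IP of replicate 1, and neither control vector IP array did. That would go against the antibody labels of AGO2 IP of the control vector and IgG IP of miR-21. PLK3 went the same way, but it is 1 gene, and genes differed in this. With the mean IgG IP minus Total RNA difference of replicate 1, the control vector arrays correlated at only 0.122 (IgG IP) and 0.0878 (AGO2 IP). Those of miR-21 correlated at 0.302 each. SESN1 differed from PLK3: with the control vector, IgG IP and AGO2 IP lay 1.46 and 1.34 above Total RNA in replicate 2. In replicate 1 these differences were -0.33 and 2.34. FAS and COP1, which are not among the 10, also differed from PLK3. With the control vector in replicate 2, FAS read 6.97 in Total RNA, 8.44 in IgG IP and 8.22 in AGO2 IP. COP1 read 9.37, 10.46 and 10.49 in the same order. SESN2 went with PLK3, at 7.12, 6.22 and 6.19. How many genes went each way was not counted. Whether AGO2 IP of the control vector and IgG IP of miR-21 were exchanged in replicate 2, or an immunopurification failed, was not tested. The labels are used as given. The signal of the ACTB 3′ control probe set minus the 5′ one was 1.35 to 1.38 in Total RNA and 1.97 to 4.0 in the IPs of replicate 1, with the highest of the 12 in AGO2 IP of control vector cells. In replicate 2 the ACTB values in Total RNA (3.53 and 3.18, control vector, then miR-21) were not below those of most IP arrays. These read 2.58 and 2.08 in AGO2 IP and 2.57 and 3.48 in IgG IP. The GAPDH control pair went the other way in replicate 2, with Total RNA (0.713 and 0.575) below AGO2 IP (1.053 and 1.023) and IgG IP (1.141 and 1.605). The part of these values in any difference from Total RNA was not tested. The level of miR-21 itself was not analysed here. Total RNA was labelled from 1 ug and IP RNA from 100 ng, so fraction and labelled amount cannot be told apart in any comparison with Total RNA. All 12 T-cell marker genes lay above the array median on each Total RNA array, against 1 of 5 B-cell, 1 of 5 monocyte, 2 of 5 epithelial and 1 of 2 erythroid markers measured. The summed T-cell level was 98.4 to 108 in Total RNA, 95.6 to 105 in IgG IP and 94.7 to 103 in AGO2 IP. Each of these ranges spans both replicate numbers, whose array means differ, so they do not compare the fractions.

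The first question was whether the genes are expressed at all in unstimulated cells without functional p53. Each of the 10 had a probe set above the median of all probe sets on each of the 4 Total RNA arrays, as did 59.2% of all named genes; genes with more probe sets have more chances. Of the 27 probe sets, 17 did so (50% of all with 1 gene symbol), 6 were below the median on all 4 arrays, and 4 were above it on some. As a reference for absent transcripts, 27 probe sets of 16 genes of other tissues (such as ALB and INS) had medians of 3.03 to 3.77 on these arrays. Above the 90th percentile of that reference on all 4 arrays lay 17 member probe sets (42.3% of all), with all 10 genes among them (52.2% of all), and 12 were above its highest value (26.9% of all probe sets), which a surfactant gene, SFTPC, set. These are levels on a bulk lysate, in which fewer cells with an RNA and less RNA per cell cannot be told apart.

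CDKN1A, which encodes the cyclin-dependent kinase inhibitor p21, lay 1.36, 1.5, 1.43 and 1.55 above the median of its array (log2; control vector then miR-21 in replicate 1, then the same in replicate 2). It was above the 90th percentile of the other-tissue reference on 4 of 4 arrays and above its highest value on none. GADD45A, a stress sensor that binds PCNA and kinases of the p38 pathway, lay 3.94, 4.07, 4.06 and 4.19 above its array's median and exceeded the whole reference on all 4. TP53INP1, a nuclear protein that promotes p53 phosphorylation and autophagy, was 1.71 and 1.75 above the median in replicate 1 and 3.58 and 3.62 in replicate 2. Its other probe sets were at or below the median: 244721_at lay between -0.27 and 0.01 from it and 235602_at between -1.65 and -1.16. The probe sets of MDM2 spread as well, from 5.29 to 6.22 above the median for 229711_s_at down to -2.17 to -1.70 from it for 237891_at, so a level of MDM2 depends on which probe set is read.

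**Figure D1:**
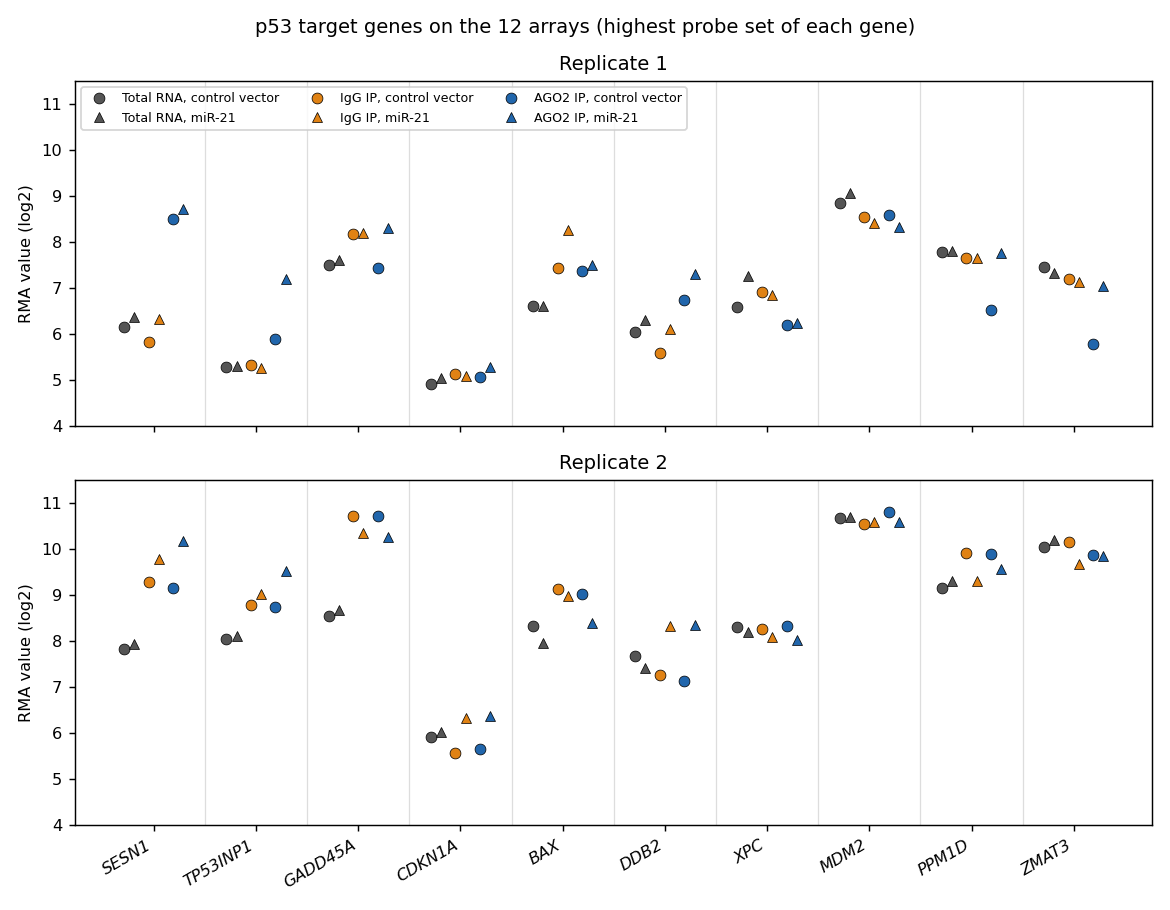
RMA values (log2, y axis) of the highest probe set of each of the 10 genes on the 12 arrays, replicate 1 above and replicate 2 below; colour gives the fraction, circles the control vector and triangles miR-21. In replicate 1 the AGO2 IP values of SESN1 (8.49 and 8.71) stand above IgG IP and Total RNA, while in replicate 2 both IPs stand above Total RNA (7.82 and 7.94).

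Against Total RNA, AGO2 IP RNA was higher for SESN1 and TP53INP1 and lower for 1 MDM2 probe set when the replicate number was a block in the fit; the other 16 tested probe sets did not pass. IgG IP RNA was higher than Total RNA for 1 BAX probe set. Between AGO2 IP and IgG IP no probe set of the 10 genes passed in that fit, while SESN1 and DDB2 passed in replicate 1 alone. Without the block, none of the 19 passed in any comparison between fractions. That fit counts the shift between replicate numbers as spread, so its lack of calls says little about differences within a replicate number. For TP53INP1 in AGO2 IP against Total RNA its SE was 1.29, beside 0.26 with the block.

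In numbers, limma with the replicate block called 2 of the 19 higher and 1 lower in AGO2 IP against Total RNA, where 3.89% of all tested probe sets were called higher and 9.91% lower. In IgG IP against Total RNA it called 1 higher and 0 lower, with a background of 0.29% and 2.31%. In AGO2 IP against IgG IP it called 0 of 19 and 0% of all probe sets (smallest adjusted p 0.881); 2 of the 19 and 1039 of all had an unadjusted p under 0.05. The fit without the block called 0 of 19 and 0% of all in each of these comparisons; at an unadjusted p under 0.05 it had 1848 of all probe sets for AGO2 IP and 703 for IgG IP against Total RNA, 44 between the IPs, and 0 of the 19. Counts of 1 or 2 among 19 are too small to set apart from these shares. The median log2 difference of the 19 was 0.12 in AGO2 IP against Total RNA and 0.06 in IgG IP against Total RNA, beside -0.05 and -0.01 for all probe sets tested.

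The replicates gave different sets of calls when each was fitted alone, with construct as an additive term. In replicate 1, 3 member probe sets were called higher (background 9.79%) and 3 lower (22.6%) in AGO2 IP than in Total RNA, 2 higher (9.04%) than in IgG IP, and 1 lower (2.4%) in IgG IP than in Total RNA. In replicate 2, 4 were higher in AGO2 IP (16.6%) and 6 in IgG IP (15.1%) than in Total RNA; between the IPs 0 of the 19 and 0% of all were called, with 98 of all probe sets and 0 of the 19 at an unadjusted p under 0.05. The difference between replicates was itself not tested.

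**Figure D2:**
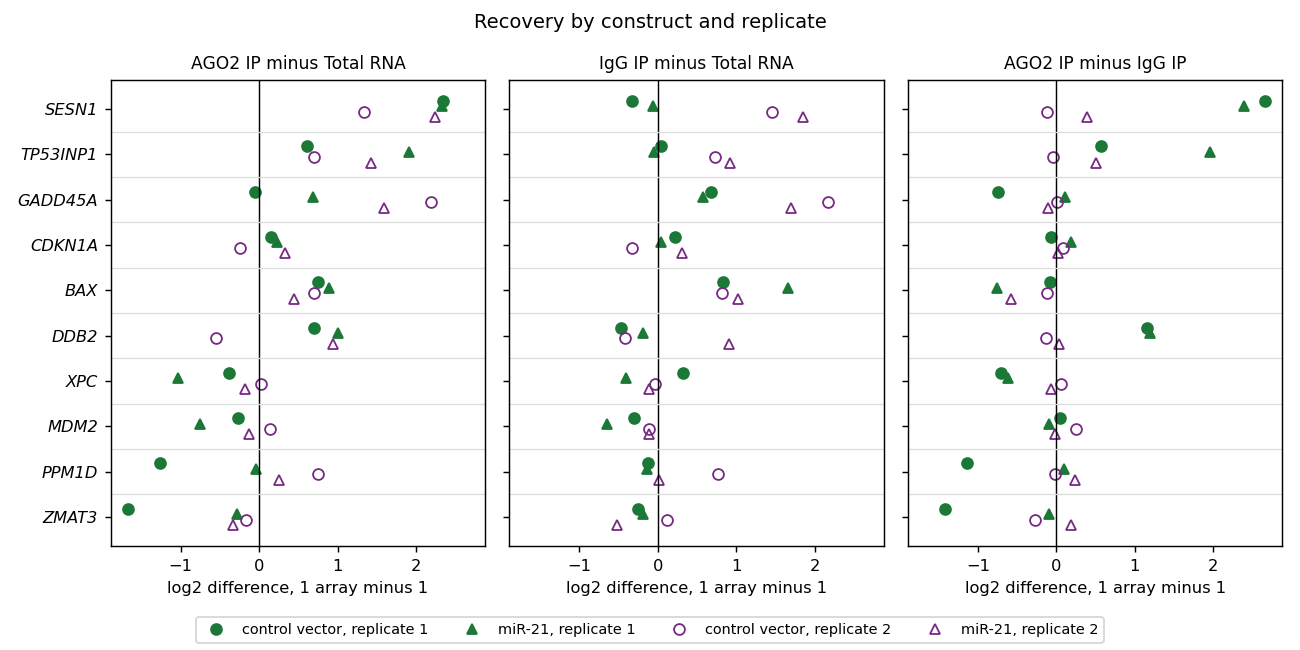
Difference between arrays of 1 construct and 1 replicate number (log2, x axis) for the highest probe set of each gene: AGO2 IP minus Total RNA, IgG IP minus Total RNA and AGO2 IP minus IgG IP. Filled green symbols are replicate 1, open purple ones replicate 2, circles control vector and triangles miR-21; for SESN1, AGO2 IP minus IgG IP is 2.67 and 2.40 in replicate 1 but -0.12 and 0.39 in replicate 2.

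SESN1 encodes sestrin 1, a stress protein that restrains mTORC1 signalling and supports the regeneration of peroxiredoxins. In replicate 1 it read 6.15 and 6.37 in Total RNA (control vector, then miR-21), 5.82 and 6.32 in IgG IP, and 8.49 and 8.71 in AGO2 IP. In replicate 2 it read 7.82 and 7.94 in Total RNA, 9.28 and 9.80 in IgG IP, and 9.16 and 10.18 in AGO2 IP. The AGO2 IP arrays were above both other fractions in replicate 1, whereas in replicate 2 they overlapped with IgG IP and both IPs were above Total RNA. AGO2 IP exceeded Total RNA by 2.06 ± 0.46 (log2, SE, n = 4 arrays a fraction; limma with the block, adjusted p = 0.0248), and in 4 of 4 pairs. Against IgG IP the difference was 1.33 ± 0.46 (limma, adjusted p = 0.881). Taken alone, replicate 1 gave 2.53 ± 0.18 for AGO2 IP against IgG IP (limma, adjusted p = 0.0012) and replicate 2 gave 0.13 ± 0.27 (adjusted p = 0.9999). By limma with the block, the call against Total RNA was lost when 1 of 5 arrays was left out: in replicate 1, AGO2 IP of the control vector (1.65, adjusted p = 0.0617) or of miR-21 (1.89, 0.107); in replicate 2, Total RNA of the control vector (1.95, 0.0938) or of miR-21 (1.92, 0.102), or AGO2 IP of miR-21 (2.24, 0.0815). Without the block its adjusted p by limma was 0.686.

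TP53INP1 showed the same order with smaller differences. Its probe set 225912_at read 5.27 and 5.30 in Total RNA of replicate 1, 5.32 and 5.25 in IgG IP, and 5.88 and 7.20 in AGO2 IP. In replicate 2 the values were 8.05 and 8.10 in Total RNA, 8.79 and 9.02 in IgG IP, and 8.75 and 9.52 in AGO2 IP. In both replicates the miR-21 AGO2 IP array was the highest, while in replicate 2 the control vector AGO2 IP value lay 0.04 below its IgG IP partner (-0.04). AGO2 IP exceeded Total RNA by 1.16 ± 0.26 (SE, n = 4 arrays a fraction; limma with the block, adjusted p = 0.0239), and IgG IP by 0.75 ± 0.26 (adjusted p = 0.881). The call was lost by limma when 1 of 6 arrays was left out: in replicate 1, Total RNA of miR-21 (1.22, adjusted p = 0.0535) or AGO2 IP of the control vector (1.12, 0.0563) or of miR-21 (0.96, 0.104); in replicate 2, Total RNA of the control vector (1.09, 0.0947) or of miR-21 (1.10, 0.102), or AGO2 IP of miR-21 (1.36, 0.0682). The remaining probe sets of TP53INP1 fell under the filter and were not tested.

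GADD45A was recovered in both IPs of replicate 2 and did not separate AGO2 from IgG. It read 7.50 and 7.62 in Total RNA of replicate 1, 8.18 and 8.19 in IgG IP, and 7.44 and 8.30 in AGO2 IP. Replicate 2 read 8.54 and 8.67 in Total RNA, 10.71 and 10.36 in IgG IP, and 10.73 and 10.26 in AGO2 IP. All 4 IgG IP arrays were above the Total RNA array of their construct and replicate, and the single IP array below it was AGO2 IP of control vector cells in replicate 1. With the block the differences missed the threshold in AGO2 IP (1.10 ± 0.37, limma, adjusted p = 0.0773) and in IgG IP against Total RNA (1.28 ± 0.37, adjusted p = 0.108). Without AGO2 IP of the control vector in replicate 1 the AGO2 IP difference was 1.49. The IgG IP difference stayed at 1.28, since no AGO2 IP array enters it. In replicate 2 alone both passed, at 1.89 ± 0.24 for AGO2 IP (limma, adjusted p = 0.0030) and 1.93 ± 0.24 for IgG IP (adjusted p = 0.0033).

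CDKN1A moved little between fractions. Its values in replicate 1 were 4.92 and 5.05 in Total RNA, 5.13 and 5.09 in IgG IP, and 5.07 and 5.28 in AGO2 IP. In replicate 2 they were 5.90 and 6.03 in Total RNA, 5.57 and 6.34 in IgG IP, and 5.66 and 6.36 in AGO2 IP. The arrays of replicate 2 grouped by construct, with both miR-21 IPs above and both control vector IPs below Total RNA. AGO2 IP differed from Total RNA by 0.12 ± 0.20 (SE, n = 4; limma with the block, adjusted p = 0.738) and from IgG IP by 0.06 ± 0.20 (adjusted p = 0.957).

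BAX, the pro-apoptotic BCL2-family protein that permeabilises mitochondria, was higher in IgG IP than in Total RNA, and its AGO2 IP values lay below IgG IP by a margin that did not pass the test. Probe set 211833_s_at read 6.60 and 6.60 in Total RNA of replicate 1, 7.43 and 8.26 in IgG IP, and 7.36 and 7.50 in AGO2 IP. Replicate 2 gave 8.32 and 7.96 in Total RNA, 9.14 and 8.98 in IgG IP, and 9.01 and 8.40 in AGO2 IP. Within each replicate every IP array was above both Total RNA arrays, and in 4 of 4 pairs AGO2 IP was below IgG IP (-0.08 and -0.12 with the control vector in replicates 1 and 2, -0.76 and -0.58 with miR-21). IgG IP exceeded Total RNA by 1.08 ± 0.23 (SE, n = 4; limma with the block, adjusted p = 0.0483), while AGO2 IP against Total RNA gave 0.70 ± 0.23 (adjusted p = 0.0777). AGO2 IP minus IgG IP was -0.38 ± 0.23 (limma, adjusted p = 0.881). The other probe set, 208478_s_at, gave 1.10 ± 0.34 in IgG IP against Total RNA (limma, adjusted p = 0.133) and was also below IgG IP in 4 of 4 AGO2 IP arrays. Leaving out an AGO2 IP array changes no difference of IgG IP from Total RNA, only its estimated spread and the adjustment. The IgG call was kept by limma when either AGO2 IP array of the control vector was left out and lost when any other single array was, with adjusted p up to 0.219 (0.97, with IgG IP of control vector cells in replicate 2 left out).

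DDB2 and XPC encode the damage-recognition factors of global-genome nucleotide excision repair, DDB2 in the UV-damage binding complex and XPC as the sensor it hands over to. DDB2 read 6.04 and 6.30 in Total RNA of replicate 1, 5.58 and 6.10 in IgG IP, and 6.74 and 7.30 in AGO2 IP. In replicate 2 it read 7.69 and 7.41 in Total RNA, 7.27 and 8.32 in IgG IP, and 7.13 and 8.35 in AGO2 IP. In replicate 1 the AGO2 IP arrays were above all others, and in replicate 2 both miR-21 IPs were above and both control vector IPs below Total RNA. The difference between AGO2 IP and IgG IP was 1.18 ± 0.18 in replicate 1 alone (limma, adjusted p = 0.0142) and -0.05 ± 0.37 in replicate 2 alone (adjusted p = 0.9999). With the block over both replicates it was 0.56 ± 0.29 (limma, adjusted p = 0.881), and AGO2 IP against Total RNA was 0.52 ± 0.29 (adjusted p = 0.263).

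XPC went the other way in replicate 1, with values that did not pass the test. It read 6.58 and 7.26 in Total RNA, 6.90 and 6.85 in IgG IP, and 6.19 and 6.23 in AGO2 IP of replicate 1. All 6 arrays of replicate 2 lay between 8.02 and 8.33. The AGO2 IP arrays of replicate 1 were below all others of that replicate, and no fraction stood apart in replicate 2. AGO2 IP minus Total RNA was -0.39 ± 0.23 (SE, n = 4; limma with the block, adjusted p = 0.294).

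MDM2, the negative regulator, was measured by 10 probe sets that did not move together. Probe set 225160_x_at read 6.94 and 7.34 in Total RNA of replicate 1, 5.41 and 5.53 in IgG IP, and 5.86 and 5.68 in AGO2 IP. Replicate 2 gave 9.75 and 9.76 in Total RNA, 9.09 and 9.35 in IgG IP, and 9.22 and 9.14 in AGO2 IP. Total RNA was above both IPs in each replicate, with no overlap. AGO2 IP fell by 0.97 ± 0.26 against Total RNA (SE, n = 4; limma with the block, adjusted p = 0.0406), and the IgG IP difference was -1.10 ± 0.26 (adjusted p = 0.0640). The AGO2 call was lost with each array centred on its median (limma, adjusted p = 0.0590) and was kept in 3 of 12 fits that left out a single array: those that dropped IgG IP of miR-21 in replicate 1 or 2, or AGO2 IP of the control vector in replicate 2. The highest adjusted p by limma was 0.150, at a difference of -0.91, with AGO2 IP of miR-21 in replicate 1 dropped, and the smallest difference was -0.72, with Total RNA of miR-21 in replicate 1 dropped. The name of this probe set carries the suffix that Affymetrix gives to probes that may also match other transcripts.

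The MDM2 probe set with the highest signal, 229711_s_at, did not show that change. It read 8.85 and 9.07 in Total RNA of replicate 1, 8.54 and 8.42 in IgG IP, and 8.59 and 8.32 in AGO2 IP. Replicate 2 held it between 10.56 and 10.81 on all 6 arrays. Its AGO2 IP minus Total RNA was -0.25 ± 0.19 (SE, n = 4; limma with the block, adjusted p = 0.416), and the 3 other tested probe sets gave 0.42, 0.13 and 0.36, none past the threshold.

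PPM1D encodes the phosphatase WIP1, which reverses the phosphorylation of p53 and of its activating kinases. Probe set 204566_at read 7.78 and 7.80 in Total RNA of replicate 1, 7.66 and 7.66 in IgG IP, and 6.52 and 7.75 in AGO2 IP. In replicate 2 it read 9.15 and 9.31 in Total RNA, 9.92 and 9.32 in IgG IP, and 9.90 and 9.56 in AGO2 IP. A single array was low, AGO2 IP of control vector cells in replicate 1. AGO2 IP minus Total RNA was -0.08 ± 0.32 (SE, n = 4; limma with the block, adjusted p = 0.903), and the second probe set, 230330_at, gave -0.30 ± 0.30 (adjusted p = 0.546).

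ZMAT3, an RNA-binding zinc finger protein, was low on the same array. Probe set 228315_at read 7.45 and 7.33 in Total RNA of replicate 1, 7.19 and 7.14 in IgG IP, and 5.77 and 7.04 in AGO2 IP. Replicate 2 gave 10.04 and 10.20 in Total RNA, 10.16 and 9.68 in IgG IP, and 9.88 and 9.86 in AGO2 IP. Each AGO2 IP array was below the Total RNA array of its pair, for this probe set and for 225725_at and 219628_at, while 227221_at was below in 2 of 4 pairs. AGO2 IP minus Total RNA was -0.62 ± 0.27 for 228315_at, -1.03 ± 0.32 for 225725_at, -1.0 ± 0.37 for 219628_at and 0.08 ± 0.22 for 227221_at (SE, n = 4; limma with the block, adjusted p = 0.163, 0.0633, 0.102 and 0.850). Without AGO2 IP of the control vector in replicate 2 the first 3 passed, at -0.96, -1.38 and -1.44 (limma with the block, adjusted p = 0.0127, 0.0111 and 0.0119). Without that of replicate 1 they were -0.28, -0.67 and -0.56, and none passed. The array that was low for PPM1D and ZMAT3 is the one with the highest ACTB 3′ minus 5′ value, 4.0; the part of this in the result was not tested.

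**Figure D3:**
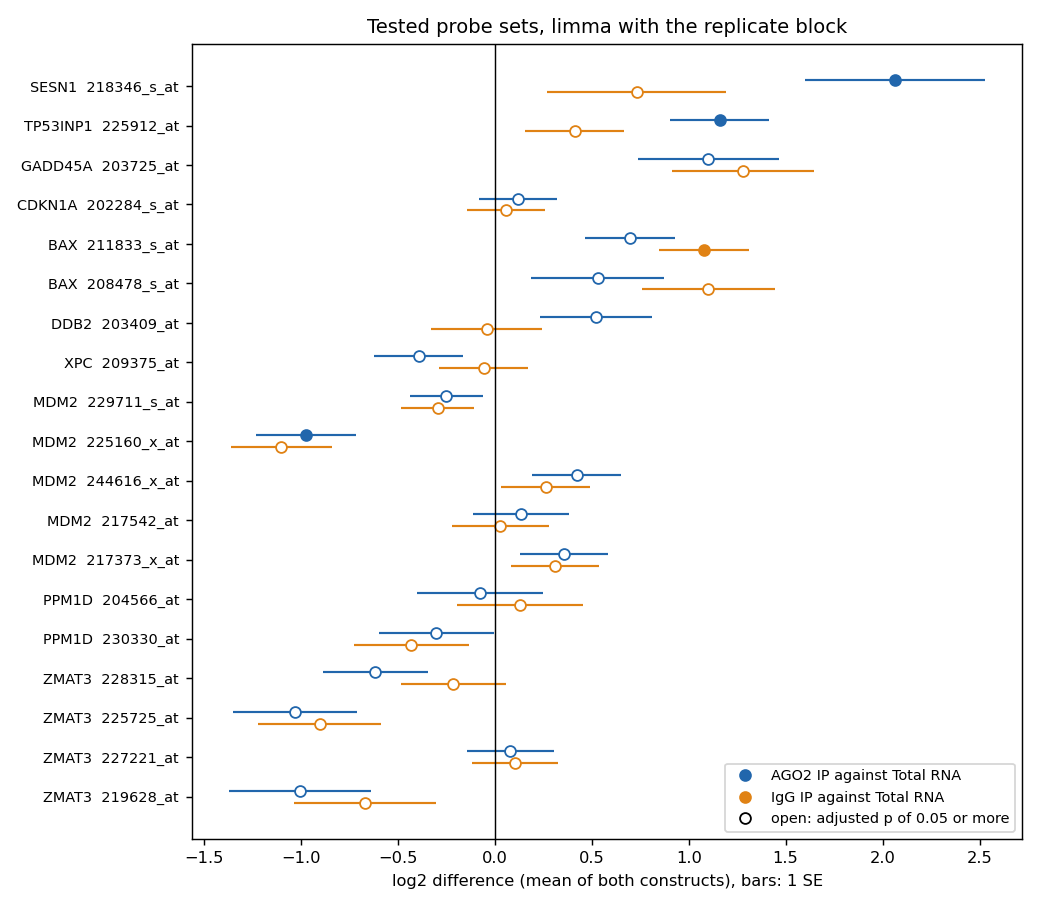
Log2 difference against Total RNA (x axis, mean of both constructs, bars 1 SE) of the 19 tested probe sets in limma with the replicate block, AGO2 IP in blue and IgG IP in orange; filled points have an adjusted p under 0.05. The filled points are SESN1, TP53INP1 and MDM2 225160_x_at for AGO2 IP and BAX 211833_s_at for IgG IP, and the probe sets of MDM2 and of ZMAT3 lie on both sides of 0.

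Pairs of arrays gave the same picture without a test. AGO2 IP was above IgG IP in 4 of 4 pairs for 1 of the 19 probe sets (PPM1D 230330_at) and below it in 4 of 4 for 2 (both of BAX), where 5.49% and 11.7% of all tested probe sets did so. AGO2 IP was above Total RNA in 4 of 4 pairs for 4 (SESN1, TP53INP1, BAX 211833_s_at and MDM2 244616_x_at; background 13%) and below it for 4 (MDM2 225160_x_at and 3 of ZMAT3; 22.8%). IgG IP was above Total RNA in 4 of 4 for 3 (GADD45A and both of BAX; 11.7%) and below it for 4 (2 of MDM2 and 2 of ZMAT3; 19.1%). The SD of AGO2 IP minus IgG IP over all tested probe sets was 0.82 and 0.76 in the pairs of replicate 1 and 0.19 and 0.34 in those of replicate 2, so most probe sets differed little between the IPs of replicate 2.

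AGO2 IP of the control vector and IgG IP of miR-21 in replicate 2 were also left out together. Their antibody labels are put in doubt by the correlation above, but an exchange was not tested. Limma with the block then called 0 of 19 in IgG IP against Total RNA (0.848% of all tested probe sets). In AGO2 IP against Total RNA it called 6 of 19 (19.9% of all). The 6 were SESN1 (2.41), TP53INP1 (1.15), MDM2 225160_x_at (-1.04) and ZMAT3 228315_at (-0.94), 225725_at (-1.38) and 219628_at (-1.47). Between AGO2 IP and IgG IP only differences are given for this fit, because no share of all probe sets called stands beside them. The largest in size were SESN1 at 2.03, BAX 208478_s_at at -1.15, DDB2 at 1.02, TP53INP1 at 0.97 and ZMAT3 228315_at at -0.80, 3 above and 2 below IgG IP. The arrays left out were picked from these same data by comparison with replicate 1. Leaving them out therefore moves the fit towards replicate 1 by construction, and it cannot test the labels. The IP arrays left in replicate 2 were AGO2 IP of miR-21 and IgG IP of the control vector. Construct and antibody cannot be told apart between them. None of the calls or differences of this fit is taken as a result.

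The construct made no difference that passed the test in any fraction. With and without the block, limma called 0 of the 19 probe sets and 0% of all for miR-21 against control vector in Total RNA, in AGO2 IP and in IgG IP, and for both interactions of construct with recovery. At an unadjusted p under 0.05 the block fit had 7, 781 and 225 of all probe sets in the 3 fractions and 107 and 157 in the interactions with AGO2 IP against IgG IP and against Total RNA; the fit without it had 0, 29, 3, 1 and 4. Of the members, 2 reached an unadjusted p under 0.05 with the block, both in AGO2 IP: TP53INP1 at 1.05 ± 0.36 and MDM2 244616_x_at at -0.79 ± 0.32 (limma, adjusted p = 0.9999 for each).

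TP53INP1 was higher with miR-21 than with the control vector by 1.32 and 0.77 in AGO2 IP of replicates 1 and 2, beside 0.03 and 0.05 in Total RNA and -0.07 and 0.23 in IgG IP. The interaction of construct with AGO2 IP against Total RNA was 1.01 ± 0.51 (limma with the block, adjusted p = 0.9999). DDB2 was higher with miR-21 by 0.57 and 1.22 in AGO2 IP and, to a like extent, by 0.53 and 1.06 in IgG IP, with 0.26 and -0.28 in Total RNA. SESN1 was higher with miR-21 on each of its 6 pairs, by 0.23 and 0.12 in Total RNA, 0.49 and 0.52 in IgG IP and 0.22 and 1.03 in AGO2 IP. These are differences of 1 array from 1 array, and none passed the test of the construct. The IP values of replicate 2 among them rest on arrays whose antibody labels the correlation above puts in doubt.

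The rest of the pathway was read from a list of 18 upstream regulators and partners of p53, 16 of them on the array and 15 tested, and a list of 40 further p53 targets, 37 on the array and 33 tested, each by its highest probe set. In AGO2 IP against Total RNA, limma with the block called 2 of the 15 upstream genes higher and 7 lower, where 3.89% and 9.91% of all tested probe sets were, with a median difference of -0.66 beside -0.05 for all probe sets. The higher ones were ubiquitin ligases of p53: COP1 at 2.14 ± 0.43 (limma, adjusted p = 0.0195) and RCHY1, which encodes PIRH2, at 1.28 ± 0.27 (adjusted p = 0.0208). Among the lower ones were the acetyltransferase EP300 at -2.07 ± 0.26 (limma, adjusted p = 0.0057), its paralogue CREBBP at -1.68 ± 0.29 (0.0133), MDM4, the p53 inhibitor related to MDM2, at -1.67 ± 0.19 (0.0038), and the kinase HIPK2 at -1.38 ± 0.21 (0.0097). The checkpoint kinases CHEK1 (0.03), CHEK2 (0.41) and ATM (-0.66) did not pass. Without the block none of either list was called.

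IgG IP against Total RNA had 0 of 15 upstream genes higher and 5 lower by limma with the block (0.29% and 2.31% of all tested probe sets), with a median of -0.53 beside -0.01: EP300 (-1.58), ATM (-1.56), MDM4 (-1.40), HIPK2 (-1.26) and ATR (-0.79). EP300, MDM4, HIPK2 and ATR were thus lower than Total RNA in both IPs, and both comparisons share the Total RNA arrays. Leaving out single arrays moved the counts of lower calls among upstream genes in both IPs, and that of higher calls in AGO2 IP. The share of all probe sets called in those fits is not given, so these moves are not read as a result about the list. Over 14 fits that left out an array or rescaled the arrays by median or quantile, EP300 and MDM4 were called in AGO2 IP in 14, HIPK2 in 12, COP1, RCHY1, CREBBP and TP53BP1 in 10, ATR in 8 and USP7 in 5. In IgG IP, MDM4 was called in 10 of the 14, EP300 in 8, ATM and HIPK2 in 6 and ATR in 2.

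Of the 33 further targets, 3 rose and 1 fell in AGO2 IP against Total RNA by limma with the block, beside 3.89% and 9.91% of all tested probe sets: the death receptor gene FAS at 1.57 ± 0.32 (adjusted p = 0.0197), the cyclin CCNG2 at 1.14 ± 0.29 (0.0355), ANKRA2 at 1.04 ± 0.30 (0.0484) and the helicase ASCC3 at -1.22 ± 0.26 (0.0220). Their median was 0.24, and 0.18 in IgG IP against Total RNA, where none was called. Leaving out single arrays moved both counts in AGO2 IP, and here too the share of all probe sets called is not given. Over the 14 fits the AGO2 IP difference ran from 1.37 to 1.77 for FAS and from -1.50 to -0.94 for ASCC3. It ran from 0.92 to 1.36 for CCNG2 and from 0.79 to 1.30 for ANKRA2. Each of these genes lost its call in some of the fits. Some genes of both lists are not analysed here.

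**Figure D4:**
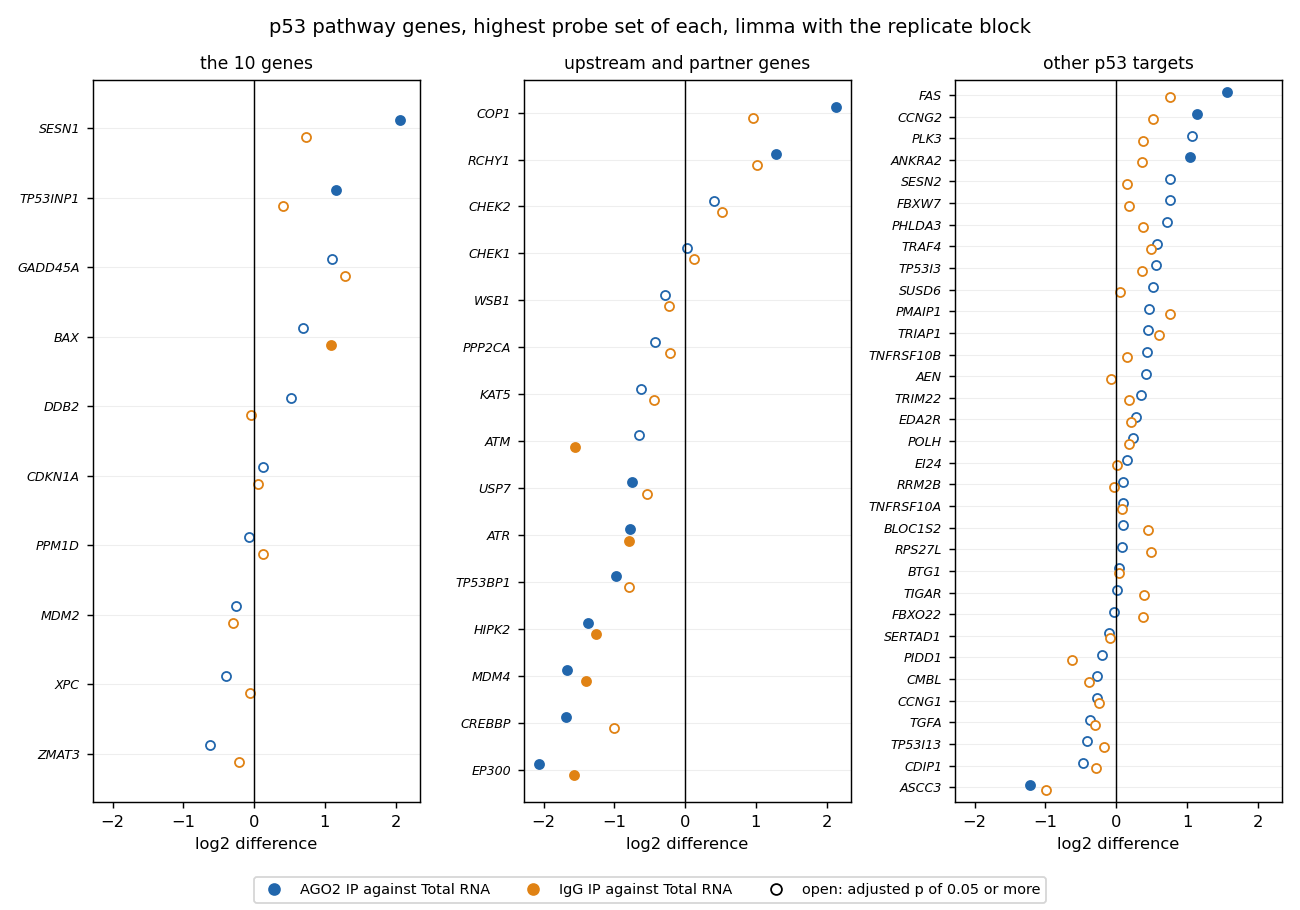
Log2 difference against Total RNA (x axis) of the highest probe set of each gene, AGO2 IP in blue and IgG IP in orange, in limma with the replicate block, for the 10 genes, the 15 upstream genes and the 33 further targets; filled points have an adjusted p under 0.05. EP300 (-2.07), CREBBP, MDM4 and HIPK2 are at the low end and COP1 (2.14) and SESN1 (2.06) at the high end of AGO2 IP.

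The genes whose values ran most like those of 3 members were found by Pearson's r over the 12 arrays after the mean of each replicate number was removed. For SESN1 they were SLC60A1 (0.994), SIX4 (0.991) and USP3 (0.990). For TP53INP1 they were FBXO21 (0.992), CAMTA1 (0.989) and ERLIN1 (0.980). For CDKN1A they were NFYC (0.956), ITPA (0.950) and CLTA (0.949). These were the highest of many genes compared over few arrays that share fractions and libraries, and are given as a description.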

How the data were processed

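The authors deposited log2 expression values that they had computed with RMA, per the submitters' processing notes; its version and settings are not stated there, nor is joint normalization of the arrays. Cells of the control vector and miR-21 constructs gave 12 arrays with 54675 probe sets each, 62 of them controls. Of the rest, 42892 are listed by the platform annotation, 41091 with 1 gene symbol and 1801 with several, and 11721 are not listed; only those with 1 symbol entered. Probe sets with a mean at or above 4.02, the 50th percentile, were tested (23123, of 12824 genes). In R 4.3.3, limma 3.58.1 (tables read with data.table version 1.17.8) fitted 1 mean per group over all 12 arrays (6 residual degrees of freedom), with Benjamini-Hochberg adjustment over all tested probe sets and a threshold of 0.05. The labels do not say what a replicate number shares. Same-numbered arrays of different groups deviated together from the group means, with correlations of 0.429 to 0.875 (median 0.605, 15 pairs of groups), so the fit with the replicate number as a block (5 degrees of freedom) stands beside it. Alternatives were the filter, 1 probe set per gene, median centring, quantile normalization, single replicates and leaving out arrays. All 10 members were named by rule, though not every probe set of MDM2 and ZMAT3. Of the other lists the rule named up to 6 called genes a comparison plus MDM4, ATM, CHEK1 and CHEK2. Outside this rule, TP53BP1, ATR and USP7 were named for their calls over the 14 fits, and PLK3 and SESN2 beside the antibody labels. Members and lists were chosen with earlier results of these data known. The number of arrays limits the precision. Figures used Python 3.11.15, matplotlib 3.10.9 and pandas 2.3.3.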

Additional observations from a re-analysis of the deposited data

Results flagged for a closer look

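In 7 of 81 differences between fractions (27 probe sets by 3 differences), both replicates of the control vector moved one way and both of miR-21 the other. That is 8.64%, beside 6.5% of such differences over all probe sets with 1 gene symbol, a share near that background. For PPM1D 204566_at, AGO2 IP minus IgG IP was -1.14 and -0.02 with the control vector and 0.09 and 0.24 with miR-21, a difference between constructs of 0.75. For ZMAT3 225725_at the values were -0.62 and -0.02 against 0.11 and 0.03, a difference of 0.39. For MDM2 229711_s_at they were 0.04 and 0.25 against -0.10 and -0.02, a difference of -0.20. The interactions of these 3 were not called by limma with the block (adjusted p = 0.9999). The others lie under the filter and their differences were not tested: AGO2 IP minus IgG IP of MDM2 205385_at (0.42) and 211832_s_at (-0.54), and, for TP53INP1 235602_at, AGO2 IP minus Total RNA (0.61) and IgG IP minus Total RNA (0.48).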

How the results depend on the processing

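Without the block, the count of member probe sets called was 0 in all 8 comparisons. In AGO2 IP against Total RNA it became 3 with the replicate block, 6 in replicate 1 alone and 4 in replicate 2 alone; in AGO2 IP against IgG IP 2 in replicate 1 alone; and in IgG IP against Total RNA 1 with the block, 1 in replicate 1 alone and 6 in replicate 2 alone. In the model with the block, AGO2 IP against Total RNA (3 calls, 13.8% of all tested probe sets) gave 5 under quantile normalization. IgG IP against Total RNA (1 call, 2.59% of all) gave 0 with median centring, where 46 of all probe sets were higher and 492 lower. Under quantile normalization it gave 2. With 1 probe set per gene or the 75th percentile filter it gave 0, but the share of all probe sets is not given there. Leaving out arrays also moved both counts. The share of all called without each single array is not given, so these moves are not read as a result about the members. A lone array left in a group is assumed to vary like the others. The pairing by replicate number changed no call in AGO2 IP against IgG IP or in the comparisons of constructs. No called value changed sign. Under quantile normalization the calls over all probe sets split into 1098 higher and 1740 lower in AGO2 IP against Total RNA (900 and 2291 as deposited) and 127 and 421 in IgG IP against Total RNA (67 and 533). Causes were not tested. Signals near the array median, as for 8 member probe sets under the filter, limit what can be seen.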
